A study of Triticum aestivum with 6 samples.

Results

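The 100 most abundant newly assembled genes of the developing wheat endosperm are described here. Of the 127196 genes in the deposited table, 16406 were assembled by the authors from the reads and 110790 belong to the reference annotation. The members were chosen on their level alone, as the 100 newly assembled genes with the highest mean FPKM (fragments divided by gene length and by library total) over the 6 libraries. Their large share of a library is therefore set by the choice and is given as a description. The table numbers the newly assembled genes behind a common prefix, from 3 to 58636, and each is called here by that number (new gene 63). The table gives no position, sequence or function for them, so no role can be attached to a member and all are described by level, length and pattern.

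The libraries were made from bulk RNA of field-grown winter wheat, cultivar Zhoumai36, from grains collected 25 days after anthesis. The innermost endosperm region (IE) was dissected as the central lobe zones of the middle grain section, and the remaining endosperm region (RE) is what was left of that section without the pericarp, a mixture of starchy endosperm and living aleurone. There were 3 libraries of each region, which the study's methods call biological replicates. The labels name the region but not the nitrogen supply of the plants, so no nitrogen level was assigned, and the comparison made is IE against RE.

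The wheat endosperm stores starch and protein for the germinating seedling. In the starchy endosperm most of the messenger RNA comes from a few gene families, above all those of the gliadins, glutenins and other seed proteins, while the aleurone is a thin living layer around it. Bread wheat carries several related subgenomes, so that most genes exist as near-identical copies. A newly assembled gene is a transcribed stretch that the annotation in use does not hold. Such a stretch can be a protein-coding gene that the annotation missed, a copy particular to the cultivar, a non-coding RNA, or a detached end of an annotated gene, and the level alone does not tell these apart.

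The libraries held between 13959933 (IE replicate 3) and 21766392 (IE replicate 2) fragments on genes, as recovered from the steps of the FPKM values. The waxy genes, which encode the granule-bound starch synthase of the starchy endosperm, summed to between 1405 and 2952 FPKM. A globulin gene that the study names for RE (TraesCS4D01G171800) was at 160, 403 and 186 FPKM in replicates 1, 2 and 3 of IE and at 356, 372 and 547 FPKM in those of RE. The gliadin gene TraesCSU01G153800, also taken as a marker of the starchy endosperm, was at 44.7, 31.9 and 50.4 FPKM in IE. In RE it was at 21.1, 24.4 and 25.5 FPKM, so it did not overlap between the regions. The waxy sum overlapped, and the globulin gene overlapped through IE replicate 2, which lay at the level of RE for that gene. The study names the gliadin gene as higher in IE and the globulin gene as higher in RE, under high nitrogen. Both thus come from its own comparison of the regions, so their levels here are no independent check of the dissection. In bulk RNA, fewer cells of a type and less RNA per cell cannot be told apart.

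All 100 members had a mean of at least 0.5 FPKM, the limit for testing, and none was listed at 0 in any library. Between 41 and 177233 fragments lay behind a member's value in a library, with a median of 952.5, so that counting error is small for nearly all of them. Log2 fold changes are given as IE relative to RE on the scale of log2(FPKM + 0.1), from limma fitted over all genes tested, with p-values adjusted by Benjamini-Hochberg over all of them. The mean level fell from 9070 FPKM at rank 1 to 28.9 FPKM at rank 99 and 28.4 FPKM at rank 100, with a median of 50.9 FPKM over the members. Only 3 members had a mean above 1000 FPKM and 27 had a mean above 100 FPKM, whereas 49 lay under 50 FPKM. Among all genes, 2 of the 100 ranked in the first 100 by mean FPKM and 32 in the first 1000, and the lowest ranked at 2771.

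**Figure D1:**
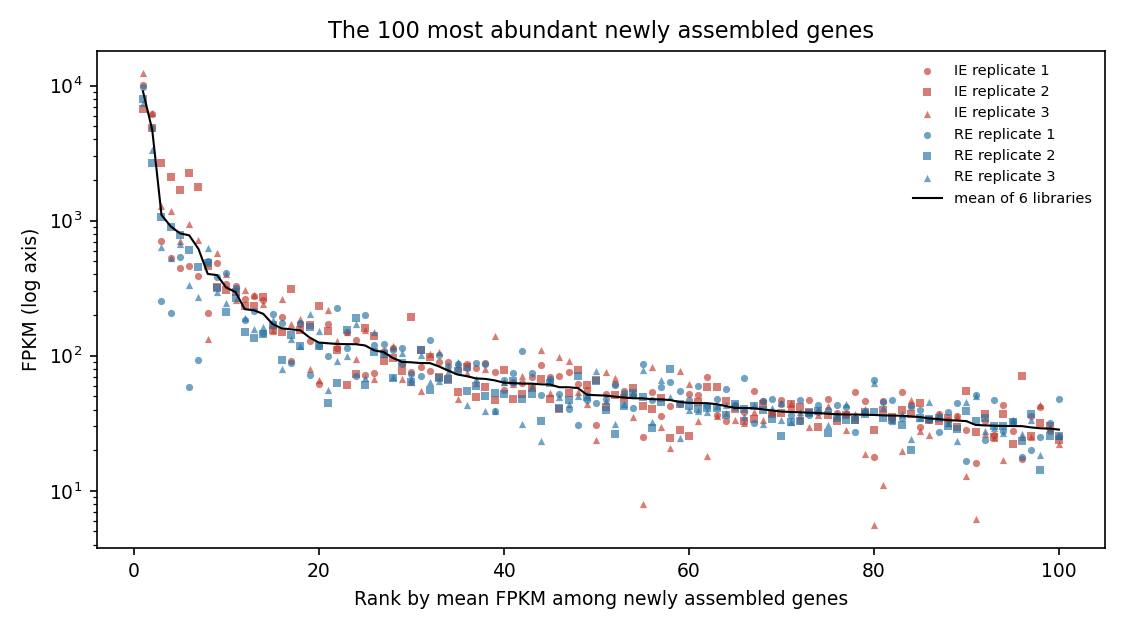
FPKM of the 100 members (log axis) against their rank among newly assembled genes, with 1 point per library (red for IE, blue for RE, shape by replicate) and a line for the mean of the 6 libraries. Ranks 1 and 2 stand clear of the rest, ranks 3 to 7 spread most between libraries, and the line runs nearly flat from about 50 FPKM at the median down to 28.4 FPKM.

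New gene 63 was the most abundant member. Its FPKM was 10075, 6706 and 12324 in replicates 1, 2 and 3 of IE, and 9824, 8007 and 7481 in those of RE, and values of other genes follow the same order. The highest and the lowest value were both in IE, so the regions overlapped. Its log2 fold change, IE relative to RE, was 0.17 (SE 0.38, limma adjusted p = 0.912), and it turned to -0.028 without IE replicate 3. It ranked between 23 and 32 among all genes in the 6 libraries, which places it among the most abundant transcripts there by FPKM.

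New gene 4984 was second, at 6166, 4880 and 6296 FPKM in IE and 4851, 2692 and 3314 FPKM in RE. Its lowest IE value lay just above its highest RE value, and it ranked between 33 and 60 among all genes of a library. The log2 fold change was 0.71 (SE 0.35, limma adjusted p = 0.548), which did not pass the test. These genes had recovered lengths of 1013 and 883 bases. For scale, the gliadin gene that the study names, TraesCSU01G153800, lay between 21.1 and 50.4 FPKM in the same libraries, and its serine protease inhibitor gene TraesCS5D01G425800 between 339 and 663 FPKM. By mean FPKM they ranked at 2411 and 228 among all genes, so this gliadin gene does not stand for the level of the gliadins as a family.

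The members took 2.25%, 2.49% and 2.61% of the summed FPKM in IE and 2.02%, 1.85% and 1.78% in RE. All values of IE were above those of RE, at 2.45% ± 0.185 against 1.88% ± 0.121 (SD, n = 3), a ratio of 1.30. An exact permutation test of 3 libraries against 3 cannot give a two-sided p under 0.1, and no p is given for a share over chosen genes. Counted in recovered fragments, which are not divided by length, the shares were 2.62%, 2.98% and 3.10% in IE and 2.36%, 2.12% and 2.04% in RE, again without overlap. The 16306 newly assembled genes outside the members took 2.51%, 2.61% and 2.09% in IE and 2.47%, 2.73% and 2.66% in RE, which overlapped. The 100 members held between 40.1% and 55.6% of the FPKM of all newly assembled genes.

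Nearly all of the difference in share came from 7 members. Of the 0.566 percentage points between the means of the regions, 45.9% came from the 2 most abundant members, 50.1% from the members ranked 3 to 7 and 4.02% from the other 93. Each of these blocks on its own overlapped between IE and RE. The 2 most abundant members took 1.39%, 0.970% and 1.57% of the summed FPKM in IE and 1.25%, 0.947% and 0.954% in RE. The members ranked 3 to 7 took 0.217%, 0.877% and 0.409% in IE and 0.0982%, 0.337% and 0.217% in RE. IE replicate 2 was thus the lowest IE library for ranks 1 and 2 and the highest of all libraries for ranks 3 to 7. The 93 members ranked 8 to 100 were almost level, at 0.643%, 0.641% and 0.632% in IE and 0.668%, 0.570% and 0.611% in RE. Without IE replicate 2, the members ranked 3 to 7 took 0.313% in IE against 0.217% in RE, and the 2 most abundant took 1.48% against 1.05%. The share of all members in IE was then 2.43%, and 78.6% of its difference from RE came from the 2 most abundant members, 17.4% from ranks 3 to 7 and 3.95% from the other 93.

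**Figure D2:**
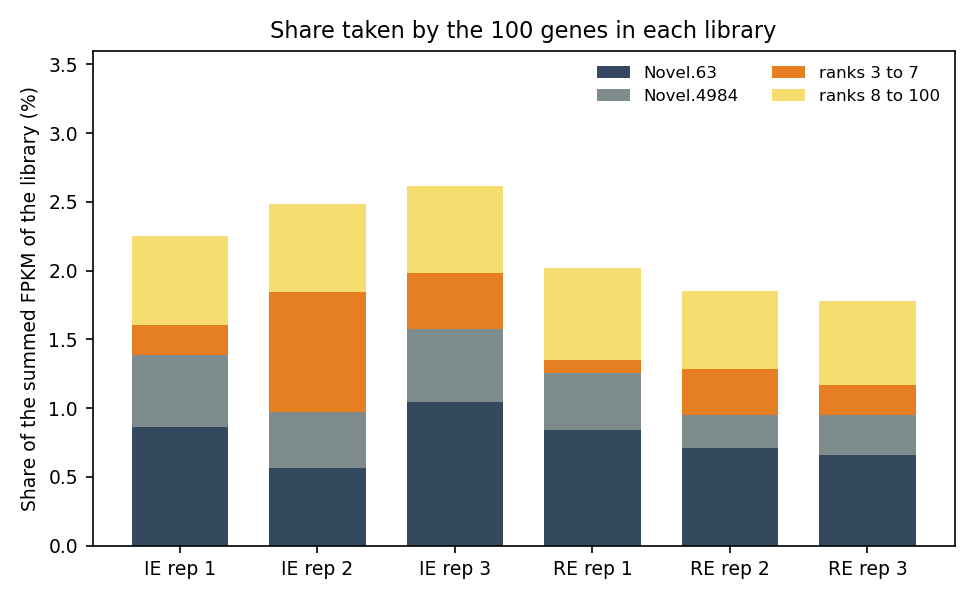
Share of the summed FPKM (%) taken by the members in each of the 6 libraries, as stacked bars of the members ranked 1 and 2 (new genes 63 and 4984), ranks 3 to 7 and ranks 8 to 100. The total is 2.25% to 2.61% in IE and 1.78% to 2.02% in RE, with the block of ranks 3 to 7 largest in IE replicate 2 (0.877%).

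The levels were concentrated in few members. New gene 63 alone held between 22.6% and 41.5% of the members' summed FPKM in a library, and with new gene 4984 between 39.0% and 62.1%. The 10 most abundant members held 75.3%, 77.9% and 79.4% in IE and 72.4%, 74.1% and 71.5% in RE, which did not overlap (77.5% ± 2.07 against 72.7% ± 1.33, SD, n = 3). In 5 of the 6 libraries 2 members were enough for 50% of the sum, and in IE replicate 2 it took 4. Between 29 and 45 members made up 90%. For comparison, the 100 most abundant annotated genes, which took between 50.2% and 60.9% of each library, needed between 16 and 19 genes for 50% of their sum and between 60 and 66 for 90%. The abundant new genes therefore had a steeper decline in level than the abundant annotated genes.

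The members were mostly short. Their recovered lengths ran from 269 to 4616 bases with a median of 869, and 62 of the 100 were under 1000 bases. The other newly assembled genes tested had a median of 895 bases, the annotated genes tested 1205 and the 100 most abundant annotated genes 698. Length enters FPKM, so it helped to choose the members and was not tested. Among the annotated genes tested, 80.2% of the lengths were multiples of 3, as coding sequences are, against 27% for the members and 33.4% for the other newly assembled genes, where 33.3% is the share that whole numbers have. The lengths behind the FPKM of annotated genes are thus largely coding lengths while those of the new genes are not, and levels set between these kinds of gene compare values divided by different kinds of length.

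The members ranked 3 to 7 are taken as a group, whose pattern new gene 43890 followed only in part. These 5 genes were highest in IE replicate 2, each by at least 1.5 times the next library, and all but new gene 43890 were lowest in RE replicate 1 by the same margin. New gene 46554 was at 705, 2660 and 1289 FPKM in IE and 253, 1060 and 643 FPKM in RE. New gene 48851 followed it closely, at 532, 2107 and 1171 FPKM in IE and 208, 894 and 531 FPKM in RE. The level of new gene 48851 stayed between 0.755 and 0.908 times that of new gene 46554 in every library while both moved over about 10-fold (10.1 and 10.5).

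New gene 44058 varied most of all members, by 38.7 times between libraries. It was at 464, 2255 and 950 FPKM in IE and 58.2, 609 and 335 FPKM in RE. New gene 46757 was at 388, 1776 and 723 FPKM in IE and 93.1, 455 and 271 FPKM in RE, a range of 19.1 times. For both, IE replicate 1 lay within the span of the RE libraries. Their log2 fold changes were the highest of the members, at 2.13 (SE 0.90) for new gene 44058 and 1.81 (SE 0.70) for new gene 46757, with limma adjusted p of 0.489 and 0.455. New genes 46554 and 48851 had log2 fold changes of 1.27 (SE 0.63) and 1.24 (SE 0.65), both overlapping between the regions. These folds rested in part on single libraries: the value for new gene 44058 was 1.54 without IE replicate 2 and 1.14 without RE replicate 1, and for new gene 46757 it was 1.23 and 1.17.

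New gene 43890 shared the high value in IE replicate 2 but not the low one in RE replicate 1. It was at 448, 1679 and 706 FPKM in IE and 539, 789 and 677 FPKM in RE. Its log2 fold change of 0.29 (SE 0.47) became -0.23 without IE replicate 2. Over the 6 libraries, the log2 levels of the group's 10 gene pairs had Pearson correlations between 0.71 and 0.997 with a median of 0.98. Pairs with new gene 43890 lay between 0.71 and 0.80, and the other pairs were at 0.98 or above. New gene 3917, outside the group, lay between 0.73 and 0.80 with its genes other than new gene 43890. New genes 43889 and 43890 were at 0.96. Over all 4950 pairs of members the median was 0.058. The group was set apart after its values were seen, so high correlations within it follow from that choice. The 6 points also share the 2 libraries that stand at the ends, so these values describe the pattern and no p is given.

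A further 4 members were highest in IE replicate 2 by at least 1.5 times the next library (new genes 43889, 32976, 5862 and 3917), making 9 of the 100, where 7.95% of all genes tested and 16% of the 100 most abundant annotated genes were so. That library also had the lowest summed level of the waxy genes (1405 FPKM), the smallest share of the 100 most abundant annotated genes (50.2%) and a summed level of the globulin genes of 409 FPKM, within the range of RE (363 to 549 FPKM) where IE replicates 1 and 3 were at 161 and 186 FPKM. The gliadin gene TraesCSU01G153800 was also lowest within IE in that library (31.9 FPKM), but there it lay above every RE library (21.1 to 25.5 FPKM). Whether any of these has a part in the high values of the group was not tested. New gene 43889, whose number precedes that of new gene 43890, stayed between 0.163 and 0.242 times its level in all libraries, with 91.4, 314 and 171 FPKM in IE and 88.0, 144 and 134 FPKM in RE.

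**Figure D3:**
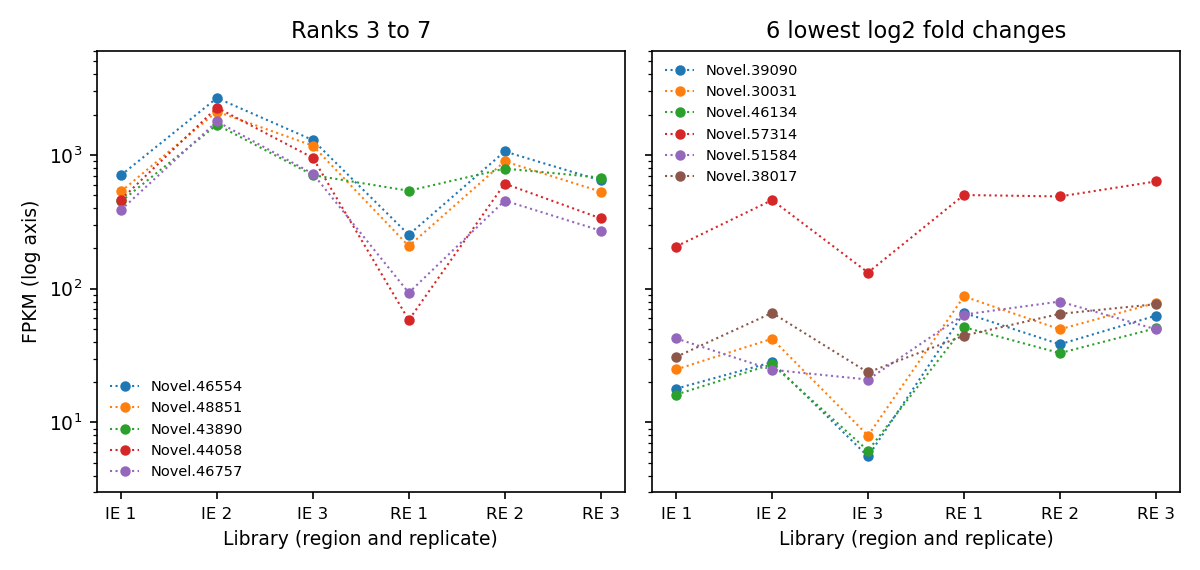
FPKM (log axis) in each library of the members ranked 3 to 7 (left) and of the 6 members with the lowest log2 fold change, IE relative to RE (right), with points joined by gene as a guide only. On the left every gene peaks in IE replicate 2 and all but new gene 43890 are lowest in RE replicate 1, while on the right new genes 39090, 30031 and 46134 run in parallel with their lowest point in IE replicate 3.

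Another set of members ran in parallel at lower levels and in the other direction. New gene 39090 had the lowest log2 fold change of the members, with 17.9, 28.2 and 5.56 FPKM in IE and 65.9, 38.4 and 62.7 FPKM in RE. New gene 30031 was at 24.9, 42.2 and 7.96 FPKM in IE and 87.4, 49.6 and 78.2 FPKM in RE. New gene 46134 was at 16.1, 27.2 and 6.14 FPKM in IE and 51.5, 33.0 and 50.6 FPKM in RE. In all of them every RE library lay above every IE library, and the lowest value stood in IE replicate 3. The log2 fold changes were -1.93 (SE 0.56), -1.77 (SE 0.57) and -1.65 (SE 0.50), with limma adjusted p between 0.364 and 0.385. Without IE replicate 3 they were -1.27, -1.10 and -1.07.

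The proportions among these genes hardly moved. New gene 39090 stayed between 0.668 and 0.803 times new gene 30031, and new gene 46134 between 0.589 and 0.772 times, while each varied between 8.37 and 11.9 times over the libraries. Among the 13 members that varied by more than 4 times, 5 of 78 pairs had a correlation of at least 0.99, and they were the 3 pairs of this set and the pairs of new gene 46554 with new genes 48851 and 46757. The reads of near-identical copies can be shared between them, so members that run in parallel may be uncertain as separate genes, and without sequences this was not tested. New gene 57314 (rank 8) resembled this set, with correlations between 0.95 and 0.96. It was at 206, 459 and 132 FPKM in IE and 501, 489 and 633 FPKM in RE, again without overlap (log2 fold change -1.21, SE 0.44, limma adjusted p = 0.437).

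IE replicate 3, the library of lowest depth, was the lowest by at least 1.5 times for 9 members, new genes 57314, 30031, 39090 and 46134 among them. Over all genes tested the share was higher, at 12.6%, and 35.4% of all genes had their lowest value there, beside 31 of the members. Of the 100 most abundant annotated genes, only 2 were lowest there by that margin and 13 at all. Low values in that library were thus common over all genes but less so among annotated genes chosen by level. What part this has in the log2 fold changes of these members was not tested.

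The remaining members with low log2 fold changes were new genes 51584 and 38017. New gene 51584 was at 42.4, 24.7 and 20.9 FPKM in IE and 64.0, 80.1 and 49.7 FPKM in RE, without overlap, and its log2 fold change was -1.18 (SE 0.31, limma adjusted p = 0.363). For new gene 38017 the regions overlapped, with 30.9, 65.8 and 23.6 FPKM in IE and 44.5, 64.7 and 76.5 FPKM in RE. Its log2 fold change was -0.73 (SE 0.40).

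Steadier differences toward IE were seen in members ranked 21, 44 and 98. New gene 38988 was at 171, 154 and 218 FPKM in IE and 99.0, 44.8 and 55.5 FPKM in RE, with a log2 fold change of 1.51 (SE 0.32) and the smallest unadjusted p of the members (0.00176, limma, adjusted p = 0.359). New gene 51574 was at 85.4, 66.8 and 110 FPKM in IE and 50.8, 32.7 and 23.4 FPKM in RE, with a log2 fold change of 1.33 (SE 0.33, limma adjusted p = 0.359). Neither gene overlapped between the regions. Leaving out any single library kept the log2 fold change of new gene 38988 between 1.27 and 1.84 and that of new gene 51574 between 1.07 and 1.63. New gene 48608 (rank 98) was at 41.7, 31.7 and 43.2 FPKM in IE and 24.9, 14.3 and 18.3 FPKM in RE, also without overlap, with a log2 fold change of 1.04 (SE 0.26, limma adjusted p = 0.359).

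**Figure D4:**
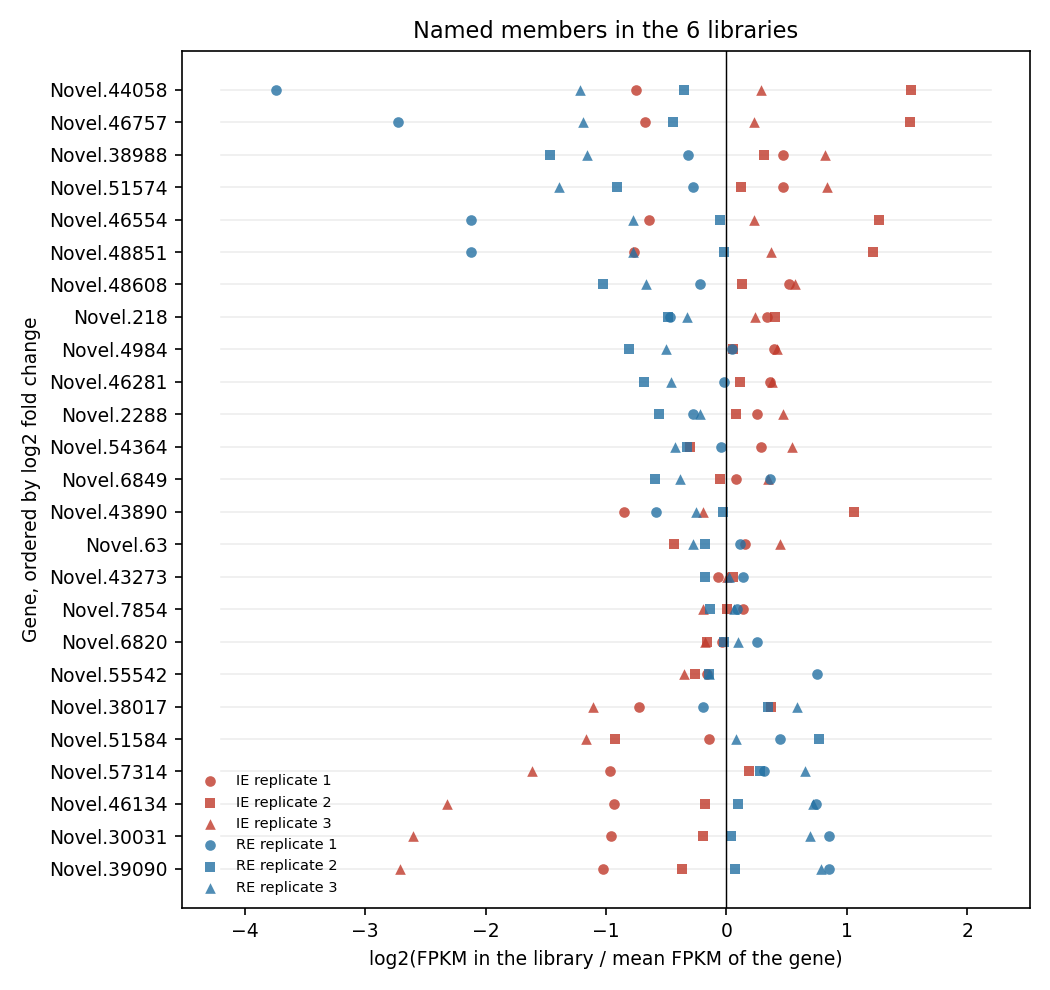
Level of the named members in each library as log2 of the FPKM over the gene's own mean, with genes ordered by log2 fold change and 1 point per library (red for IE, blue for RE, shape by replicate). The points of new genes 44058 and 46757 spread most, with RE replicate 1 far to the left, while those of new gene 218 form separate tight clusters for the regions.

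Among the most abundant members, the tightest separation was in new gene 218 (rank 14). It was at 258, 270 and 242 FPKM in IE and 147, 146 and 163 FPKM in RE. The mean was 256 ± 14.4 against 152 ± 9.45 FPKM (SD, n = 3), and the log2 fold change was 0.75 (SE 0.20, limma adjusted p = 0.361). New gene 2288 was at 264, 234 and 307 FPKM in IE and 183, 150 and 190 FPKM in RE (log2 fold change 0.62, SE 0.22). New gene 46281 was at 279, 234 and 282 FPKM in IE and 214, 135 and 158 FPKM in RE (log2 fold change 0.67, SE 0.24). For these genes too the regions did not overlap, and the differences were under 2-fold.

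Other members of high rank were close to level. New gene 7854 (rank 11) was at 327, 298 and 260 FPKM in IE and 315, 269 and 310 FPKM in RE, a range of 1.26 times, with a log2 fold change of -0.020 (SE 0.22). New gene 6820 was at 167, 154 and 152 FPKM in IE and 205, 170 and 183 FPKM in RE, which did not overlap although the log2 fold change was only -0.23 (SE 0.20). New gene 54364 was at 483, 320 and 576 FPKM in IE and 383, 315 and 294 FPKM in RE (log2 fold change 0.44, SE 0.28), with overlap. New gene 6849 was at 337, 307 and 406 FPKM in IE and 410, 212 and 245 FPKM in RE (log2 fold change 0.33, SE 0.30), where RE replicate 1 was the highest of all libraries.

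New genes 43273 and 55542 were the last members inside the limit of 100, after new gene 48608. New gene 43273 was the steadiest member, at 27.5, 30.0 and 29.0 FPKM in IE and 31.9, 25.6 and 29.4 FPKM in RE, a range of 1.24 times. New gene 55542 was at 25.3, 23.6 and 22.2 FPKM in IE and 47.9, 25.6 and 25.7 FPKM in RE, where RE replicate 1 stood apart. The genes just outside were new genes 49207, 50763 and 49058, with means of 28.3, 28.3 and 28.2 FPKM, so the limit falls where levels hardly differ.

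Over the 51830 genes tested, limma called 0 genes between IE and RE (0%), members included, with the limits set at 0.05 for the adjusted p and at 2-fold for the change. The smallest adjusted p was 0.359, and 5203 genes had an unadjusted p of at most 0.05. At an unadjusted p of at most 0.05 with the same fold, 5 members were higher in IE (new genes 44058, 46757, 38988, 51574 and 48608), beside 1.64% of all genes tested. There were 5 members lower in IE (new genes 57314, 30031, 51584, 39090 and 46134), beside 4.11% of all genes. Without IE replicate 3 these counts were 2 and 3. Without RE replicate 3 the first was 3, and without RE replicate 1 the second was 3. The shares of all genes in those fits are not given here, so these changes cannot be set beside them. Of the members, 9 were higher in IE without overlap, where 4.35% of all genes were, and 12 were lower in IE without overlap, where 11.9% of all genes were. With median-ratio scaling the counts were 10 higher and 5 lower, beside 6.81% and 8.67% of all genes. The members' counts thus turned from more lower to more higher, while the shares of all genes moved in the same direction. Leaving out RE replicate 3 gave 9 higher, and leaving out any other single library gave between 14 (without IE replicate 1) and 30 (without RE replicate 1), where fewer values are compared and between 7.72% and 9.15% of all genes were higher. With all 6 libraries and no rescaling, 5.72% of the other newly assembled genes were higher and 8.20% lower in IE without overlap. Of the 100 most abundant annotated genes, 8 were higher and 7 lower in that comparison.

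The members without overlap that are not yet described differed by less than 2-fold, and they are named here after their values were seen. New gene 38977 was higher in IE, at 75.3, 52.7 and 91.2 FPKM against 40.1, 47.1 and 44.3 FPKM in RE. New gene 10940 was at 40.0, 44.3 and 44.7 FPKM in IE and 36.6, 32.2 and 32.3 FPKM in RE. Lower in IE were new genes 5179, 48615, 27471, 19982 and 370, with log2 fold changes between -0.47 and -0.23. Of these, new gene 370 was the most even within a region, at 25.7, 25.0 and 24.5 FPKM in IE, while RE replicate 1 (47.2 FPKM) stood above the other RE libraries (30.2 and 29.4 FPKM).

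In size, the log2 fold change was under 0.5 for 72 of the 100 members and reached 1 for 12, beside 71.4% and 9.62% of all genes tested. The median over the members was 0.089, with 57 above and 43 below 0, against -0.12 over all genes tested, -0.025 over the other newly assembled genes and 0.077 over the 100 most abundant annotated genes. With median-ratio scaling, which rescales each library by its typical gene and brought the median of all genes to 0.0047, that of the members was 0.21, that of the abundant annotated genes 0.20 and that of the other newly assembled genes 0.092. The members' median thus lay beside that of annotated genes chosen by level in the same way. The levels of a member differed between its highest and its lowest library by a median of 2.02 times, with 20 members under 1.5 times and 13 over 4 times.

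**Figure D5:**
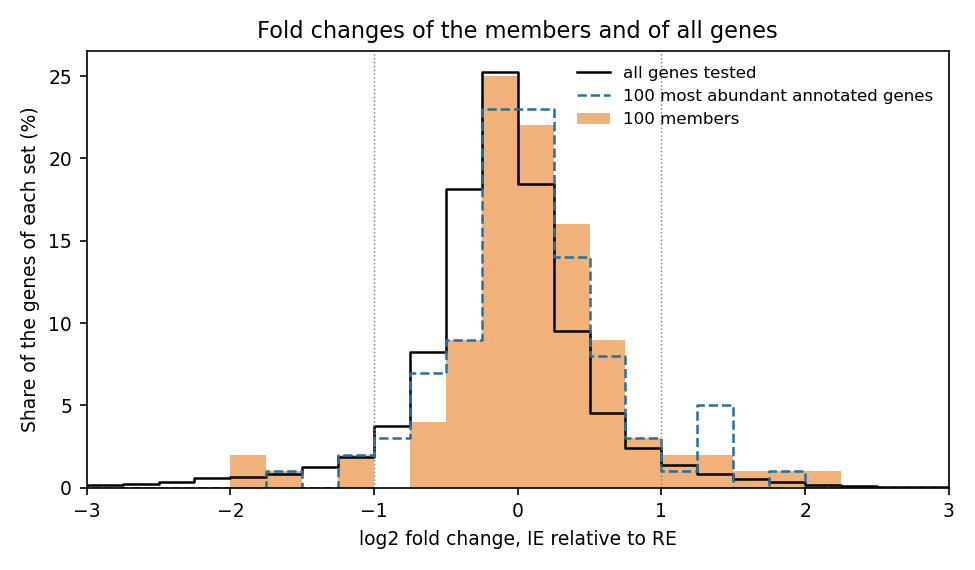
Share of the members (bars), of all genes tested (solid line) and of the 100 most abundant annotated genes (dashed line) in each class of log2 fold change, IE relative to RE, with dotted lines at 1 and -1. The members centre near 0 (median 0.089), close to the abundant annotated genes (0.077) and to the right of all genes (-0.12).

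Members whose numbers follow each other did not all run together. There were 3 such pairs among the 100. New genes 43889 and 43890 kept a nearly constant proportion, as given above. New gene 48607 was at 114, 96.4 and 119 FPKM in IE and 111, 68.4 and 69.4 FPKM in RE, between 2.74 and 4.78 times the level of new gene 48608. New gene 4956 was at 115, 111 and 128 FPKM in IE and 224, 63.2 and 91.7 FPKM in RE, and new gene 4957 at 76.0, 47.0 and 141 FPKM in IE and 38.7, 52.6 and 39.2 FPKM in RE. These neighbours moved apart, their ratio running from 0.909 to 5.80 with its highest value in RE replicate 1. New gene 4956 was 1 of 5 members highest in RE replicate 1 by at least 1.5 times, the others being new genes 2562, 10036, 370 and 55542, beside 1.87% of all genes.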

How the data were processed

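RNA was measured in 6 endosperm libraries, 3 IE and 3 RE. The authors cleaned the reads (Illumina filter, fastp), aligned them to the Chinese Spring reference with HISAT2 and deposited FPKM values per gene. How new genes were assembled and reads counted is not given in the sources used here. Gene lengths and library totals were recovered from the steps of the FPKM values, with whole fragments for 100% of the 86042 genes with a value. Summed, they make 99.4% to 99.5% of a library's total, since numbers with a common factor come out divided by it. FPKM keeps shifts in composition between libraries.

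The regions were compared on log2(FPKM + 0.1) with limma 3.58.1 in R 4.3.3, with a variance trend and Benjamini-Hochberg adjustment, over 51830 genes whose mean FPKM reached 0.5. The pseudocount understates changes of low genes. A call needed a 2-fold change and an adjusted p no higher than 0.05. The fit and the recovery were tested on simulated data. Other steps used Python 3.11.15, numpy 2.4.6, pandas 2.3.3, numba 0.67.0 and matplotlib 3.10.9.

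The members and lists were chosen with earlier results of these data known. Named are the 15 members of highest mean, the 6 of highest and 6 of lowest log2 fold change, the 3 on each side of the limit of 100, and genes the study names for scale. Members standing apart in 1 library or numbered consecutively were named after their values were seen. The block of ranks 3 to 7 was also set apart after its values were seen. Alternatives changed the pseudocount, filter, scaling, variance model, choice of members and replicate block, or left out a library. The share of ranks 3 to 7 without IE replicate 2 was added after seeing the data.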

Additional observations from a re-analysis of the deposited data

How the results depend on the processing

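Adjusted p gave 0 called genes in all 15 alternative fits, and the smallest adjusted p ran from 0.0566 (without IE replicate 2) to 0.628. An unadjusted p of at most 0.05 together with the 2-fold change gave 2980 genes in the main fit. Whether same-numbered IE and RE libraries are paired is not stated in the sources used here. Deviations of same-numbered libraries correlated at 0.11, 0.059 and -0.20, and not every library correlated best with its own number. These correlations cannot settle whether the libraries are paired. With the number as a replicate block, 0 genes were called. By the unadjusted limit and the 2-fold change, 7 and 5 members were then higher and lower in IE. New genes 46554 and 48851 joined the higher ones (limma unadjusted p = 0.0042 and 0.0037, against 0.081 and 0.092 without it, adjusted p = 0.366 for both). For new genes 44058 and 46757 the block moved the limma unadjusted p from 0.046 and 0.033 to 0.00095 and 0.00058 (adjusted p = 0.353 for both).

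Under the other settings, the members past the unadjusted limit and the 2-fold change were 3 on the TPM scale and 2 to 6 without 1 library for higher in IE. For lower in IE they were 1 with 50 members, 14 with 200 members and 3 to 7 without 1 library. In the main fit, which also holds for 50 and 200 members, 1.64% of all genes were higher and 4.11% lower by this limit. The shares of all genes under the other settings are not given here. Members without overlap were 9 to 30 (higher) and 13 to 18 (lower) without 1 library, where fewer values are compared. Of all genes, 6.58% to 9.15% were then higher and 14.2% to 27.1% lower. For lower in IE, 5 members were without overlap with median-ratio scaling, beside 8.67% of all genes. The counts were 4 with 50 and 27 with 200 members, beside 11.9% of all genes. The members' share was 2.90% in IE and 2.17% in RE by fragments, and in RE 1.71% with 50 and 2.08% with 200 members. Without 1 library it was 2.37% to 2.55% in IE and 1.82% to 1.94% in RE. The share of the 10 most abundant was 82.9% and 72.3% in IE and 79.9% and 65.8% in RE with 50 and 200 members, 74.7% in RE for members chosen by fragments, and 76.6% to 78.7% in IE and 72.0% to 73.3% in RE without 1 library. The cause of these shifts was not tested, beyond the number of genes counted. Choosing by median FPKM kept 96 of the 100 members and by fragments 70.

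Of 375 log2 fold changes of named members under alternatives, 365 kept their direction. The value for new gene 7854 was 0.10 and for new gene 43273 0.12 with median-ratio scaling. Without 1 library, they lay between -0.10 and 0.068 and between -0.086 and 0.071. New gene 63 then ranged from -0.028 (without IE replicate 3) to 0.41, and new gene 43890 from -0.23 (without IE replicate 2) to 0.72.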
